A study of Xenopus laevis with 16 samples.

Results

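GATA4 is a zinc-finger transcription factor of heart, endoderm and blood vessel development, and Dkk-1 is a secreted antagonist that binds the LRP5/6 co-receptors and so blocks canonical Wnt signalling. The gene models described here were those with less RNA when Dkk-1 was added to GATA4 in Xenopus laevis animal cap explants during the first hours of culture. They were chosen by their measured values, as follows. The level of a model was taken as log2(CPM + 1), where CPM is the count scaled to library size with TMM factors, and 1 CPM is added so that models near 0 do not dominate. A model was kept where its level with GATA4-GR+Dkk-1 was lower than with GATA4-GR by at least 0.3 at each of 2.5, 5 and 7.5 h and by at least 0.6 on average, and where the GATA4-GR+Dkk-1 level at 2.5 h was less than 1 above control. The rule kept 101 models, which are 0.327% of the 30841 models with a total of at least 50 counts, out of 54142 models in the table. Without the condition on the control, 130 models met the thresholds, and with the sign turned 49 models did.

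Animal caps are the pluripotent ectoderm of the blastula, which forms epidermis when left alone. Explants were uninjected (control), or came from embryos injected with mRNA for GATA4-GR (G4), for GATA4-GR with Dkk-1 (G4D), or for Nodal5. GATA4-GR is a fusion of GATA4 with the glucocorticoid receptor's hormone-binding domain and acts once dexamethasone (DEX) is added. Nodal5 is a TGF-β family ligand that induces mesoderm and endoderm. Pooled explants of these 4 treatments were taken after 2.5, 5 and 7.5 h (the early hours) and after 24 h, which gave 16 libraries with 1 library per treatment and time point. Whether control and Nodal5 explants also received DEX was not given in the sources used here.

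In this tissue, GATA4 is known to turn ectoderm towards cardiac, endothelial and endodermal fates, and Wnt antagonists are known to favour heart over other mesoderm. Canonical Wnt signalling acts through β-catenin, which joins TCF/LEF factors at target genes, and its antagonists act upstream of that step at the cell surface. The deposited table gives models by identifier only, and 0 of 54142 identifiers were found in the gene table used here. The members are therefore described by their values, without gene names or roles, and the labelled tissue and the injected genes could not be checked against marker genes.

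Total counts ranged from 11339829 to 23310320 per library. TMM factors were 1.02 to 1.1 in the 12 libraries of 2.5 to 7.5 h and 0.71 to 0.914 in the 4 libraries of 24 h. The 5 h libraries of all treatments carry a label as sequenced again. In bulk samples, fewer cells of a type and less RNA per cell cannot be told apart. In control, early levels of the members were low, with medians of 3.08, 3.06 and 3.81 CPM at 2.5, 5 and 7.5 h, against 4.69, 4.60 and 4.63 CPM over all models. With GATA4-GR, which the choice favours, the members' medians were 5.45, 6.25 and 8.71 CPM, against 4.55, 4.75 and 4.95 CPM. Their totals over all libraries ranged from 191 to 314332 counts with a median of 3641, against a median of 1697 over all models with at least 50 counts. At least 50 counts in each of the GATA4-GR libraries of 2.5 to 7.5 h were held by 56 members. Reads shared between models made 54.1% of the members' values fractional, against 47.9% over all models tested, so near-identical copies among them are uncertain.

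The differences that chose the members are given as a description. The median G4D minus G4 difference of the 101 members was -0.67, -0.60 and -0.83 at the 3 early hours, in order, on the log2(CPM + 1) scale. Averaged over the hours the median was -0.70 and the lowest value was -1.32 on this scale, where the added 1 CPM makes differences of low models smaller than those of their counts. The median log2 fold change fitted to the counts was -0.90. Only 3 members had a mean of -1 or less. Many members lay near the threshold: 50 had a mean above -0.7, and the value closest to the threshold was -0.601 inside and -0.5996 outside. Most members, 58 of 101, had their lowest value at 7.5 h, 26 at 2.5 h and 17 at 5 h.

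**Figure D1:**
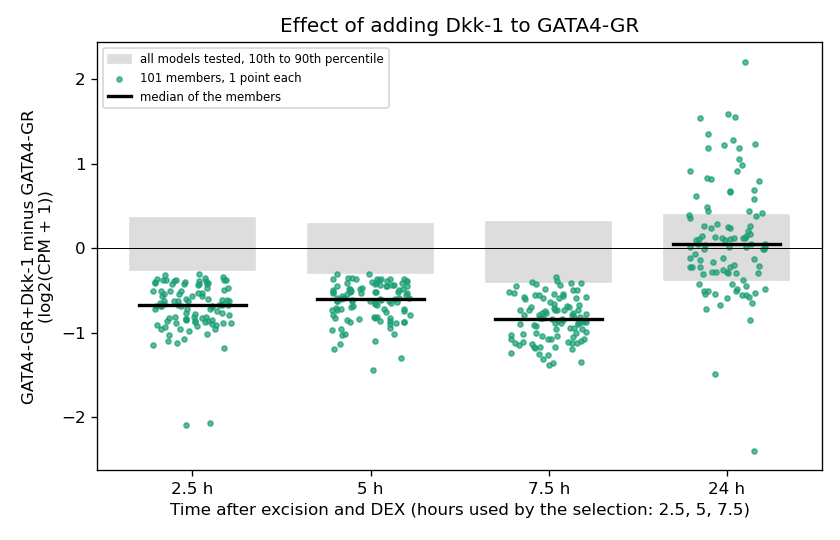
Difference in log2(CPM + 1) between GATA4-GR+Dkk-1 and GATA4-GR at each hour for 101 members (points), their median (line) and the 10th to 90th percentile of all models tested (grey). The points lie below 0 at 2.5, 5 and 7.5 h, where they were chosen to, and around a median of 0.05 at 24 h.

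The background of all 30841 models was not symmetric at 2.5 and 7.5 h, and nearly so at 5 h. A difference of -0.3 or less was found in 7.84% of them at 2.5 h, 9.27% at 5 h and 15.6% at 7.5 h, while 0.3 or more was found in 14%, 9.04% and 10.2%. A shift of the background also ran with the time course of the models. Among 9704 models outside the members that rose from 2.5-7.5 h to 24 h in control and Nodal5 explants (adjusted p under 0.1 in edgeR's quasi-likelihood test), the median G4D minus G4 difference was -0.01 at 2.5 h, -0.06 at 5 h and -0.13 at 7.5 h. Among 8479 models that fell over the same interval it was 0.08, 0.06 and 0.09. The rule required the members' medians to be larger in size than these values, so nothing is read from the gap. The part of the shift in the members was not tested.

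To see what the rule gives in libraries that had no part in the choice, it was applied to 2 of the hours and read at the other. The models chosen this way only partly overlapped the members. With 2.5, 5 and 7.5 h left out, they included 86, 90 and 59 members, in order. Those members are at -0.3 or less at the hour left out by the full rule. The values below therefore describe the rule and are no independent check of the members. With 2.5 h left out, and with it the limit on the control of that hour, 295 models were chosen, and at 2.5 h their median difference was -0.27 (25th to 75th percentile -0.56 to -0.05). Of these, 47.5% had a difference of -0.3 or less, against 7.84% of all models. With 5 h left out, 261 models had a median of -0.27 at 5 h, and 44.4% were at -0.3 or less, against 9.27%. With 7.5 h left out, 78 models had a median of -0.59 at 7.5 h (25th to 75th percentile -0.87 to -0.43), and 85.9% were at -0.3 or less, against 15.6%. At each hour not used the median was thus below 0, and it was smaller in size than the mean of -0.6 or less required over the chosen hours. Each of these values sets 1 library against 1. Among the 9704 models outside the members that rose to 24 h, 11.2%, 13.3% and 26.6% were at -0.3 or less at 2.5, 5 and 7.5 h. The background over all models is thus lower than that of late-rising models, and the part of the shift in these shares was not tested.

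Across the libraries of 2.5 to 7.5 h the contrast of G4D with G4 was fitted with terms for hour and treatment. By edgeR's quasi-likelihood test it called 0 of 101 members as lower, beside 0% of all models, and 0 as higher, beside 0.00324%. In the lower direction 62 members had an unadjusted p-value under 0.05, beside 3.66% of all models. When only the G4 and G4D libraries of these hours were fitted, 101 members were called, beside 4.45% of all models. Both fits rest on the contrast that chose the members, so nothing is read from these counts, which differed with the libraries behind the error.

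Against control, the members fell into separate patterns. These patterns also use libraries of the rule and are descriptive. In 64 members the mean G4 level of 2.5 to 7.5 h was at least 0.5 above control, and the mean G4D level was not 0.5 below it: these models were higher with GATA4, and by less when Dkk-1 was present. In 22 members G4 was not raised by 0.5 and G4D was at least 0.5 below control. A further 14 members met neither limit and 1 met both. The first pattern had median G4 minus control differences of 0.89, 1.43 and 1.69 at 2.5, 5 and 7.5 h, while G4D minus control was 0.21, 0.81 and 0.84. Over all models, too, fewer were at least 1 above control with G4D: 1.41%, 2.29% and 2.8% at these hours, against 1.76%, 2.96% and 3.56% with G4. None of the libraries had Dkk-1 alone. Over the 65 members at least 0.5 above control with G4, the G4D difference from control was 45.1% of the G4 one on the log2 scale (25th to 75th percentile 25.4% to 59.3%), and 10 of them were at or below control with G4D. The second pattern had medians of 0.04, -0.31 and -0.46 for G4 and -0.78, -0.84 and -1.24 for G4D. With quasi-likelihood tests over the same hours, 47 members were higher than control with G4 (7.34% of all models) and 27 with G4D (5.03%), while 3 (7.18%) and 10 (5.65%) were lower. The choice of members favours high G4 and low G4D values, so these counts are not evidence of their own.

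**Figure D2:**
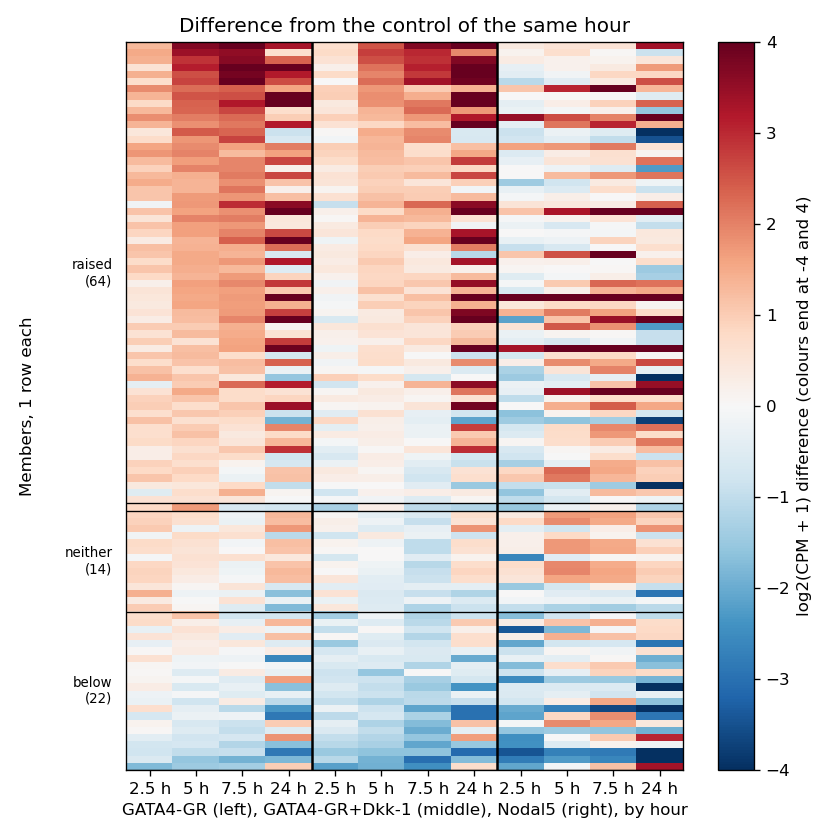
Difference from the control of the same hour in log2(CPM + 1) for each of the 101 members (rows), with columns for the 4 hours within each treated group, from GATA4-GR on the left to Nodal5 on the right. The upper block of 64 members is red with GATA4-GR and paler with GATA4-GR+Dkk-1 up to 7.5 h. The lower block of 22 is mostly blue with GATA4-GR+Dkk-1 up to 7.5 h, the hours that define it, and mixed at 24 h.

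The levels differed between the patterns too. The 64 members of the first had a median of 1.47 to 1.89 CPM in control over 2.5, 5 and 7.5 h, 3.66, 6.15 and 9.09 CPM with G4, and 1.87, 4.23 and 5.05 CPM with G4D. They were thus low in unstimulated ectoderm. The 22 members of the second had medians of 14.6, 10.3 and 13.0 CPM in control, 10.8, 6.36 and 8.70 CPM with G4, and 6.75, 4.30 and 4.75 CPM with G4D. These models were already present in control explants.

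At 24 h, which the rule did not use, the members lay on both sides of 0. The median G4D minus G4 difference was 0.05 (25th to 75th percentile -0.29 to 0.42), against -0.01 over all models. A difference of -0.3 or less remained in 23 members, beside 14.7% of all models, and 29 members were at 0.3 or more, beside 15.2%. The 23 include models with similar differences in each treatment, listed below for Nodal5, which were counted separately. These had G4D minus G4 differences from -0.651 to -0.420 at 24 h. As they may be copies, the 23 are not read as an excess over all models. A difference of 1 or more in favour of G4D was found in 11 members (1.07% of all models), and 2 were at -1 or less (1.19%). The first pattern had a median of 0.12, with 42 of 64 members above 0, and the second had -0.13, with 13 of 22 below 0. The 56 members with at least 50 counts in each early G4 library had a median of -0.20, with 35 below 0 and 17 at -0.3 or less. That subset was set after the data were seen. It includes all the models listed below for Nodal5, which were counted separately and lay from -0.651 to -0.283 at 24 h. With a pseudocount of 2 CPM the rule kept 44 models, 41 of them among the 101, and their median at 24 h was -0.24. That setting changed both the models kept and the scale. The sign of the 24 h median thus differed between settings, and what changed it was not tested.

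Most members were late-rising models. In control and Nodal5 explants, 75 of 101 members were higher at 24 h than at 2.5 to 7.5 h by edgeR's quasi-likelihood test (adjusted p under 0.1), beside 31.7% of all models, with a median log2 fold change of 3.34 among those called. Lower at 24 h were 0 of 101, beside 27.5% of all models, and 0 also with DESeq2's Wald test. In that direction 0 members had an unadjusted p-value under 0.05 in the quasi-likelihood test, beside 26.8% of all models. A rise of at least 1 in log2(CPM + 1) was found in 72 members in control, 79 with G4, 93 with G4D and 71 with Nodal5, against 18.4% to 20.8% of all models. The median member went from 3.81 CPM at 7.5 h to 23.0 CPM at 24 h in control, from 8.71 to 49.9 CPM with G4, from 4.75 to 48.2 CPM with G4D, and from 7.97 to 24.7 CPM with Nodal5. G4D explants therefore had the largest rise from the early hours among these libraries, with a median of 3.08 in log2(CPM + 1), against 2.48 with G4, 1.86 in control and 1.77 with Nodal5. The G4D value starts from early levels that the rule chose to be low.

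**Figure D3:**
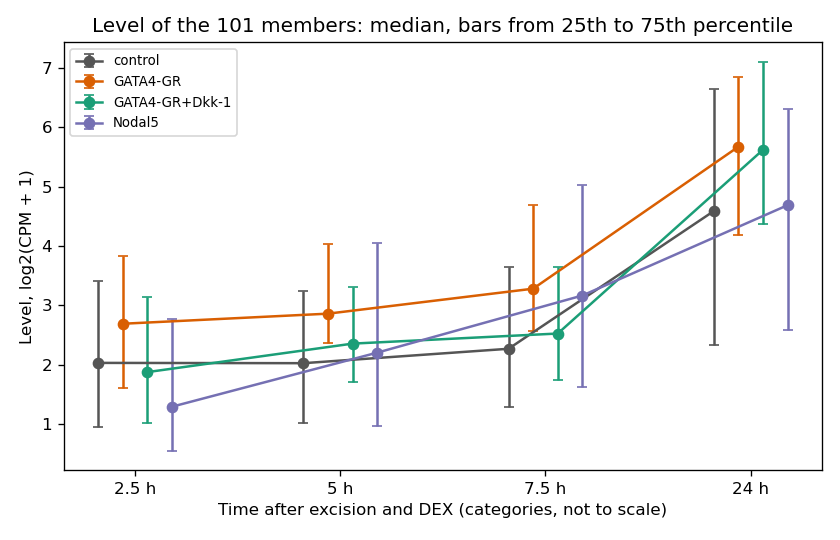
Median level of the 101 members in log2(CPM + 1) by treatment and hour, with bars from the 25th to the 75th percentile of the members, 1 library per point. GATA4-GR lies above GATA4-GR+Dkk-1 up to 7.5 h, and both medians lie at 50 CPM or just under at 24 h, against 23.0 CPM in control.

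Relative to control, many members were high at 24 h with both GATA4 treatments. A level at least 1 above control was found in 50 members with G4 (9.69% of all models) and 45 with G4D (10.1%), of which 38 were shared (8% of all models). The Nodal5 library had 30 such members (10.8%), and 23 members were at least 1 above control in all 3 treatments, against 3.61% of all models. These treatments share the control library of 24 h. The 50 members with G4 include all the models listed below for Nodal5, which had similar differences in each treatment and were counted separately. With G4, 37 of the 64 members of the first pattern were at 1 or more, and 2 were at -1 or less. In the second pattern 5 of 22 were at 1 or more and 8 were at -1 or less. A level of -1 or less was found in 13 members with G4 (11.2%), 12 with G4D (11.4%) and 25 with Nodal5 (13.6%). Set against G4 at 24 h, Nodal5 gave lower levels in 74 of 101 members, against 50.9% of all models, with a median of -0.49 against -0.01 over all models. The choice favours models high with G4 at the early hours, so high G4 levels at 24 h are not independent of it.

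Nodal5 explants, which also had no part in the rule, gave a response that turned with time. The median Nodal5 minus control difference of the members was -0.34, 0.13 and 0.70 at the early hours in order and 0.42 at 24 h, while the medians over all models lay between -0.01 and 0.04. At 2.5 h, 27 members were at -1 or less (2.18% of all models) and 9 were at 1 or more (2%). At 5 h, 8 were at -1 or less (1.45%) and 28 at 1 or more (2.12%). At 7.5 h, 8 were at -1 or less (1.83%) and 41 at 1 or more (3.46%). The difference was higher at 7.5 h than at 2.5 h in 83 of 101 members, against 44.7% of all models, and 45 members went from below control to above it, against 20.3%. The control library of 2.5 h enters the rule through the limit on G4D, which favours models high in it. Without that limit, the medians of the 130 models were -0.18 at 2.5 h and 0.54 at 7.5 h.

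**Figure D4:**
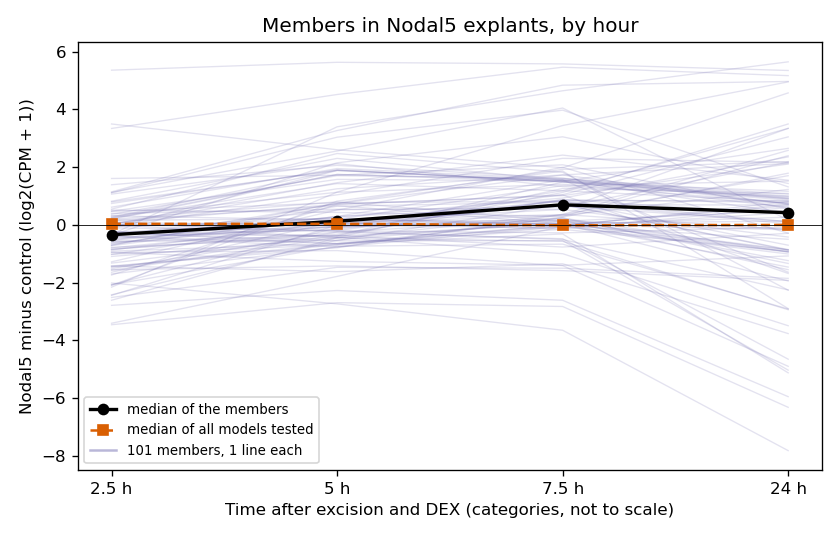
Nodal5 minus control difference in log2(CPM + 1) by hour for 101 members (lines), with the member median (circles) and of all models tested (squares). The member median goes from -0.34 at 2.5 h to 0.70 at 7.5 h while that of all models stays near 0.

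A quasi-likelihood test of the effect shared by 2.5, 5 and 7.5 h called 28 members as higher with Nodal5 (5.73% of all models), with a median log2 fold change of 1.81, and 10 as lower (5.35%), with a median of -1.99. The counts depended on the hours: without the 2.5 h libraries 39 were higher and 11 lower, and without the 5 h libraries 6 were higher and 6 lower. Without the 7.5 h libraries 15 were higher and 19 lower. The error of this test also came from the G4 and G4D libraries, which the rule used. With control and Nodal5 libraries only, 17 members were higher and 9 lower. Of the 28 members called higher, those named next had similar differences from control with each treatment. Among them, Xelaev16006233m.g, Xelaev16039033m.g and Xelaev16059174m.g had Nodal5 minus control differences of 1.909, 1.952 and 1.706 at 5 h. At 7.5 h their differences were 1.479, 1.593 and 1.609. At 24 h their G4D minus G4 differences were -0.420, -0.452 and -0.575, and their G4 minus control differences were 1.138, 1.302 and 1.287. Similar values were found in Xelaev16066592m.g, Xelaev16018816m.g, Xelaev16050352m.g, Xelaev16062805m.g, Xelaev16006234m.g, Xelaev16041827m.g, Xelaev16073301m.g and Xelaev16048346m.g. Over all of these, Nodal5 minus control ranged from 1.183 to 1.609 at 7.5 h, and G4 minus control from 1.138 to 1.315 at 24 h. All enter the Nodal5 counts at 1 or more for 5 and 7.5 h, and the 24 h count for G4 against control. All but Xelaev16048346m.g enter the 24 h count at -0.3 or less for G4D against G4. Shares without these models were not computed. Each was counted as a separate member, and whether they are copies that share reads was not tested. The change of the Nodal5 effect over these hours was tested with a slope for each treatment, a test added after the values were seen. It called 41 members as moving upward relative to control (4.84% of all models). It called 0 as moving downward (4.24%), where 1 member had an unadjusted p-value under 0.05, beside 9.79% of all models. The slope test takes its error from the G4 and G4D libraries too, and was not run on control and Nodal5 libraries alone.

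Individual members are given by identifier, by a rule on their values. Xelaev16072243m.g and Xelaev16006155m.g had the lowest mean differences among members with at least 50 counts in each early G4 library. Xelaev16072243m.g was at 25.9, 11.2, 5.29 and 24.1 CPM with G4, from the first hour sampled to the last, and at 5.30, 3.51, 3.73 and 17.7 CPM with G4D. The gap was widest at 2.5 h and narrowed to 7.5 h. Control explants held 14.6, 2.72, 8.78 and 40.9 CPM, and Nodal5 explants 4.45, 2.13, 10.3 and 16.8 CPM. Over the early hours it had 608 counts with G4 and 232 with G4D, a log2 ratio after scaling of -1.64 (95% Clopper-Pearson interval -1.86 to -1.42, for counting error only, of a ratio that the rule chose to be negative), and at 24 h the log2 ratio was -0.44 (-0.68 to -0.21). G4 lay above control at 2.5 and 5 h and below it later, and G4D was below control at 2.5, 7.5 and 24 h.

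Xelaev16006155m.g had a like course in every treatment. It was at 51.3, 16.1, 10.6 and 38.9 CPM with G4 and at 11.5, 5.96, 7.60 and 35.3 CPM with G4D, against 31.0, 6.82, 18.7 and 64.7 CPM in control and 8.87, 3.60, 17.9 and 31.7 CPM with Nodal5. Its early log2 ratio was -1.51 (-1.68 to -1.36) from 457 and 1099 counts, and at 24 h it was -0.14 (-0.32 to 0.03), an interval that includes 0. In both models counts were partly fractional, so that reads may be shared between copies. Both rose to 24 h in control and Nodal5 explants by the quasi-likelihood test, with log2 fold changes of 1.94 (adjusted p = 0.0374) for Xelaev16072243m.g and 1.72 (adjusted p = 0.0453) for Xelaev16006155m.g. The Nodal5 effect shared by the early hours did not pass the threshold in either, with log2 fold changes of -0.56 (adjusted p = 0.634) and -0.84 (adjusted p = 0.372).

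Xelaev16005378m.g and Xelaev16036698m.g had the highest early Nodal5 levels relative to control among the same members, and their Nodal5 values are descriptive for that reason. Xelaev16005378m.g was at 236, 201, 196 and 160 CPM with Nodal5, in order of hour, and at 4.78, 3.06, 3.13 and 2.96 CPM in control. With G4 it went from 6.98, 10.7 and 12.3 CPM to 92.4 CPM, and with G4D from 4.28, 5.31 and 8.42 CPM to 175 CPM. With Nodal5 it was highest at the first hour sampled, whereas with both GATA4 treatments it was highest at 24 h. The log2 ratio of G4D to G4 was -0.83 over the early hours, where the rule chose it to be negative. At 24 h it was 0.92 (0.83 to 1.02, counting error only), from 1 library of each treatment.

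Xelaev16036698m.g was at 34.6, 35.6, 58.4 and 696 CPM with G4, and at 17.4, 24.9, 22.1 and 609 CPM with G4D. Control explants held 8.58, 6.76, 10.4 and 232 CPM, and Nodal5 explants 19.7, 62.7, 178 and 579 CPM. It was above control in each of the treated libraries at every hour. Its log2 ratio of G4D to G4 lay in the interval -1.11 to -0.90 early, from 1228 and 2074 counts, and was -0.19 (-0.23 to -0.15) at 24 h. It rose to 24 h in control and Nodal5 explants with a log2 fold change of 3.92 (adjusted p = 0.00312 in the quasi-likelihood test), and Xelaev16005378m.g, at -0.35 (adjusted p = 0.188), did not pass.

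**Figure D5:**
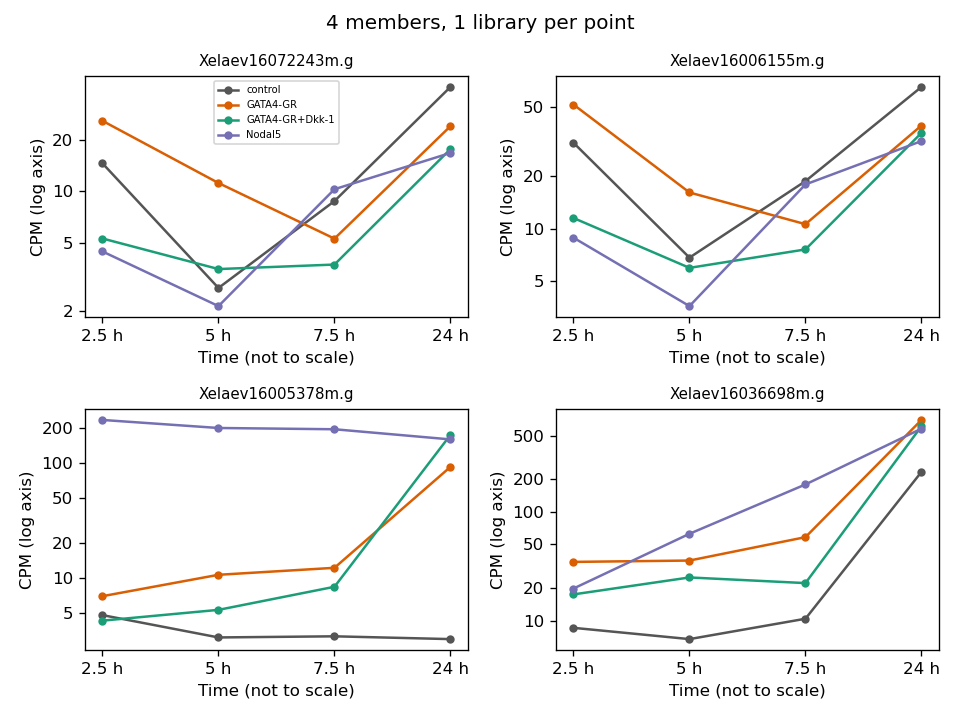
Level in CPM (log axis) by hour and treatment for 4 members, 1 library per point. Xelaev16072243m.g and Xelaev16006155m.g run in parallel, Xelaev16005378m.g is at 160 CPM or more with Nodal5 throughout, and Xelaev16036698m.g is highest at 24 h with each treatment.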

How the data were processed

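Poly(A)+ RNA of X. laevis animal caps was sequenced as paired-end reads from directional libraries. Bowtie was used by the authors for alignment to gene models (JGI, v7.2), and RSEM to estimate counts per model. Tool versions were not given in the sources used here. The table deposited holds expected counts without normalization for 54142 models in 16 libraries. The members were selected from the deposited values, and for tests the counts were rounded to whole numbers. Models with a total of at least 50 were kept (30841). Libraries were scaled by TMM, and quasi-likelihood tests were run in edgeR 4.0.16 (R 4.3.3) with Benjamini-Hochberg adjustment over all models tested and a threshold of 0.1. The 12 libraries of 2.5 to 7.5 h were fitted by time point and treatment, and 24 h was tested against the earlier hours in the 8 control and Nodal5 libraries. The error is then the variation between hours, as explant batches were not replicated, and differences at one hour have no replicate check. The Nodal5 fit, the 24 h fit and the selection rule were run on simulated counts drawn independently for each library. The slope test and the fit of G4 and G4D libraries alone were not run on simulated counts. Alternatives were RLE size factors, DESeq2 1.42.0, other filters on low counts, a pseudocount of 2 CPM, a threshold of 0.05 and fits without single hours.

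The members and lists were chosen with earlier results of these data known. Identifiers printed are the 2 members with the lowest mean difference and the 2 with the highest early Nodal5 difference, among members with at least 50 counts in each early GATA4-GR library. Other identifiers are printed only for members with similar differences from control. Planned lists of named genes were not run, since no identifier matched a name.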

Additional observations from a re-analysis of the deposited data

Results flagged for a closer look

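The effect of Nodal5 on the members differed between hours by a test of that difference. With a slope over 2.5, 5 and 7.5 h for each treatment, 41 of 101 members moved upward relative to control by edgeR's quasi-likelihood test (adjusted p under 0.1), beside 4.84% of all models, and the difference was higher at 7.5 h than at 2.5 h in 83 members. The test was added after the values were seen and has 1 library per treatment and hour behind it. Its error also came from the G4 and G4D libraries of these hours, which the rule used. Without the condition that uses the control library of 2.5 h, 43 of 130 models were called in that direction.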

How the results depend on the processing

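Of 111 alternative values for 24 results, 96 stayed within 1.5 times the reported count or within 0.247 of the reported median. That limit is the smallest standard deviation of the Dkk-1 difference over single models at one hour and is wide for a median over members, so it is no measure of stability. The Nodal5 median at 2.5 h, for example, ranged from -0.36 to -0.18. With a pseudocount of 2 CPM, 44 models met the rule, 41 of them among the 101 members, their median difference at 24 h was -0.24, and G4D minus control at 7.5 h went from 0.09 to -0.32. The 24 h difference was -0.20 for members with at least 50 counts in each early G4 library, a setting chosen after the data were seen. Those members include the models with similar differences in each treatment, counted separately. RLE size factors gave 101 models, 99 of them shared. The Nodal5 calls of 28 higher and 10 lower became 39 and 11 without the 2.5 h libraries and 6 and 6 without the 5 h libraries. They became 15 and 19 without the 7.5 h libraries, and 17 were higher with control and Nodal5 libraries only. Members lower at 24 h numbered 1 without the 2.5 h libraries and 2 with control libraries only, in place of 0. The contrast of G4D with G4 called 101 members in place of 0 when only those libraries were fitted. The Nodal5 slope called 1 model downward without the control condition and 4 members with a slope for Nodal5 alone, both chosen after the data were seen. The cause of these changes was not tested. DESeq2's Wald test called 26 members higher and 11 lower with Nodal5. Members with few counts limit the precision at 2.5 to 7.5 h, and the spread between explant batches was not measured. Fits over 2.5 to 7.5 h with terms for hour and treatment compare treatments within the hour. Replicate numbers give no other pairing, since each treatment has 1 library per time point.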
